A study of Mus musculus with 8 samples.

Results

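The TRBV13 family is the set of V segments TRBV13-1, TRBV13-2 and TRBV13-3 of the T-cell receptor (TCR) β-chain, known in the older nomenclature as Vβ8. Its members were taken as every β-chain clonotype whose V segment was named as one of these 3, which gave 16157 clonotypes of 60131 (26.9%) and 21796 reads of 80000 (27.2%) in 8 mice. TRBV13-1 accounted for 6107 of these clonotypes, TRBV13-2 for 3612 and TRBV13-3 for 6438. The 3 members are among 24 TRBV segments named in the repertoires.

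The mice were female C57BL/6 animals of 6 to 8 weeks bearing B16F10 melanoma. All of them, the CTXpre group (n = 3) and the CTXpre/CD4post group (n = 5), were lymphodepleted on day 3 with cyclophosphamide (CTX) at 300 mg/kg and given Pmel-1 CD8+ T cells on day 5 with 10000 IU of interleukin-2 a day for 3 days. Only the CTXpre/CD4post group also received 200 μg of the anti-CD4 antibody GK1.5 on days 10, 17 and 24. On day 25, Thy1.1-negative CD8+ endogenous T (en-T) cells were sorted from inguinal lymph nodes and spleen, so each library is a mixture of both tissues, and TCR transcripts were amplified from 100 ng RNA. There was no group without CTX or without transferred cells. The Pmel-1 receptor is a transgene that recognises gp100, a melanoma antigen, and its β-chain V segment is called Vβ13 in the older nomenclature, which is TRBV14 and not a TRBV13 segment. The tables hold TCR transcripts alone, so markers of CD8+ T cells or of other cells could not be read from them.

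A β-chain gene is assembled in the thymus by joining 1 V, 1 D and 1 J segment, with bases trimmed from the ends of the segments and others added at the joins. The joined region encodes the CDR3, the loop of the receptor that lies over the presented peptide, and reads with the same CDR3 nucleotide sequence and segments make up a clonotype. The V segment encodes the other 2 loops of the chain and the first bases of the CDR3. Vβ8 receptors are abundant in C57BL/6 mice and are known as targets of bacterial superantigens such as staphylococcal enterotoxin B and as the main β-chains of natural killer T cells.

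In the RefSeq annotation of GRCm38, the 3 segments lie on the plus strand of chromosome 6, at chr6:41116036-41116468 (TRBV13-1, formerly V8.3), chr6:41121396-41121832 (TRBV13-2, formerly V8.2) and chr6:41130147-41130585 (TRBV13-3, formerly V8.1). Over a stretch of equal length at the 3′ end of each segment, TRBV13-2 and TRBV13-3 were 91.8% identical, TRBV13-1 and TRBV13-2 88.8%, and TRBV13-1 and TRBV13-3 86.1%. Each segment offers 16 bases to the CDR3, counted from the codon of the cysteine that opens it, and these are shown because the members differed in how much of them was kept. The capital marks position 10, the single base that differs:
TRBV13-1: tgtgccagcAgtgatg
TRBV13-2: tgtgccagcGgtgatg
TRBV13-3: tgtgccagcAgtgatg
From TRBV13-1 to TRBV13-2 the substitution is A10G, which turns a serine codon into a glycine codon. TRBV13-1 and TRBV13-3 end identically, so a CDR3 sequence alone does not tell them apart and their names rest on the rest of the V segment in the read. Of 15580 distinct CDR3 nucleotide sequences in the family, 190 were named with more than 1 TRBV13 member, always in different mice, and 139 (0.892%) also occurred under a TRBV segment outside the family, again never in the same mouse. Only sequences seen in 2 or more mice could thus carry a second name, and most were seen in 1. The 15580 are therefore not the base for a rate of uncertain names.

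Each library held exactly 10000 reads after down-sampling by the authors, so the depth was equal and limits what could be seen. Absence from a library allows a share of up to 3 reads, or 0.03%. No molecular identifiers are named in the methods, and reads from PCR are not independent molecules, so confidence intervals cover counting error only. Of the TRBV13 clonotypes, 81.6% were seen in 1 read.

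2 libraries stood apart by the sequences they had in common. CTXpre/CD4post replicates 1 and 2 had 47 TRBV13 sequences in common, 11.5 per 1000000 possible pairs of clonotypes, where the other 27 pairs of mice had 7 to 24 in common, 2.13 to 6.61 on the same scale. Of the 18 TRBV13 clonotypes with 10 or more reads in replicate 1, 13 were also present in replicate 2, and over the other 55 ordered pairs of mice a single such clonotype was found in the second mouse. The common sequences held 356 reads in replicate 1 and 77 in replicate 2, and 31 of them had more reads in replicate 1, 3 in replicate 2 and 13 the same number. Among the other TRBV segments the same pair stood apart in the same way, with 101 sequences in common against 12 to 34. Whether RNA, cells or reads passed between these 2 libraries was not tested. Both were counted as separate mice in the tests, and the results that rest most on them are also given without one or the other.

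TRBV13-3 and TRBV13-1 headed the β-chain V segments of the en-T cells by mean share of reads, and TRBV13-2 was the fifth. TRBV13-3 held 10.8% ± 1.18 of the reads (SD, n = 8 mice), TRBV13-1 10.3% ± 1.29 and TRBV13-2 6.06% ± 0.642. TRBV16, next in the order at 10.3% ± 1.67, did not differ from either by more than this spread, and TRBV12-1 followed at 7.34% ± 0.606. TRBV13-2 and TRBV17, at 5.94% ± 0.542, did not differ beyond their spread. TRBV13-3 was above TRBV13-1 in 5 of 8 mice by reads and in 5 of 8 by clonotypes, so the order of these 2 members was not settled. TRBV13-2 was below both other members in 8 of 8 mice by either measure. In these bulk samples, fewer cells with a segment and less receptor RNA per cell cannot be told apart.

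Of the 3 members, TRBV13-3 differed most between the groups by reads, short of the threshold over all segments. In the CTXpre mice it held 1163, 1149 and 1269 of 10000 reads, and in the CTXpre/CD4post mice 905, 952, 1077, 1035 and 1120, each by replicate number. The groups did not overlap, and the nearest mice were 1120 and 1149 reads. The change, CTXpre/CD4post over CTXpre, was −0.32 on the log2 scale with a standard error of 0.10. edgeR's quasi-likelihood test gave an unadjusted p = 0.0058 and an adjusted p = 0.067 after Benjamini-Hochberg adjustment over all segments tested, which did not pass 0.05. Without CTXpre/CD4post replicate 3 it did, at −0.35 and adjusted p = 0.012 in the same edgeR test, and it also did with replicate numbers as a block, a fit of the 6 mice of replicates 1 to 3. Without CTXpre replicate 3 the change was −0.20 (edgeR, adjusted p = 0.47), and without CTXpre/CD4post replicate 1 or 2, the pair named above, it was −0.29 or −0.30 and did not pass. With all 8 mice it was −0.23 without TMM scaling (edgeR, adjusted p = 0.25) and −0.26 in DESeq2 (adjusted p = 0.14), which did not pass either.

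TRBV13-1 held 1134, 1027 and 1170 reads in the CTXpre mice and 1130, 1076, 869, 1059 and 813 in the CTXpre/CD4post mice. Replicates 3 and 5 of the CTXpre/CD4post group were below every CTXpre mouse and the other 3 were within their range, and the change was −0.26 with a standard error of 0.12 (edgeR, adjusted p = 0.27). It was −0.15 without CTXpre replicate 3 and −0.17 without TMM scaling. TRBV13-2 held 635, 554 and 558 reads against 749, 610, 596, 584 and 562, with CTXpre/CD4post replicate 1 the highest. Its change was 0.00 with a standard error of 0.12 (edgeR, adjusted p = 0.99), and it turned to −0.08 without that mouse. Without TMM scaling it was 0.09 (edgeR, adjusted p = 0.59).

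Segments were tested where 3 or more mice had 10 or more reads. Of these 23, edgeR called 0 (0%) at an adjusted p under 0.05, and DESeq2 also called 0. At an unadjusted p under 0.05 edgeR had 4 segments, of which TRBV13-1 and TRBV13-3 were 2. The median change was −0.26 over the 3 members and −0.04 over all 23 segments. In 8.7% of the segments every CTXpre/CD4post mouse was below every CTXpre mouse by reads, TRBV13-3 among them, and in 0% was every mouse above.

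**Figure D1:**
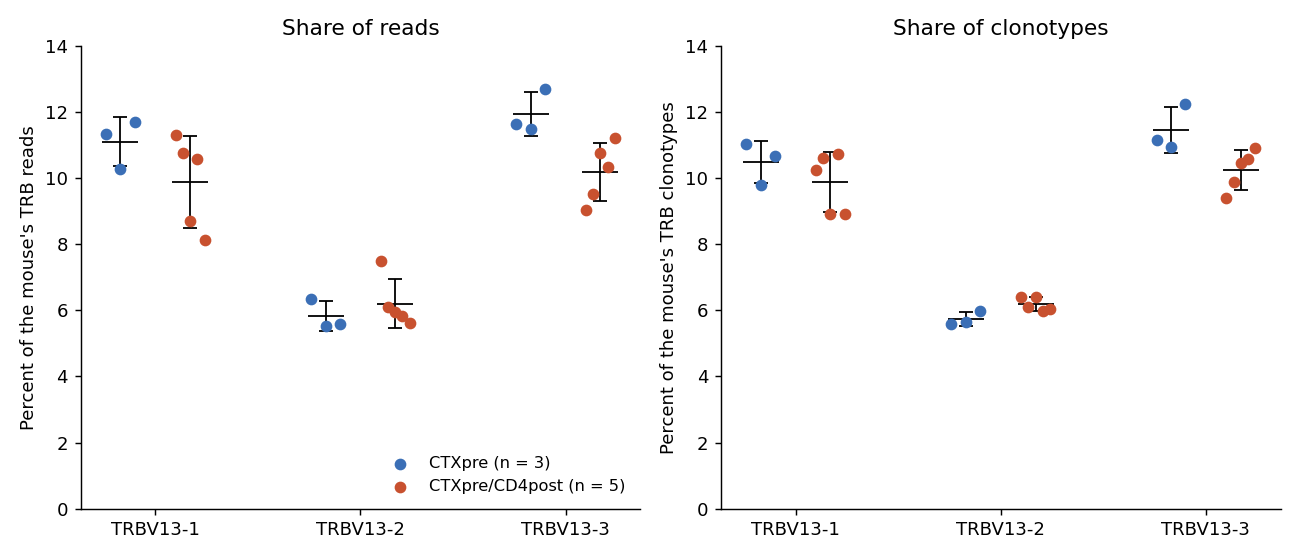
Percent of the β-chain reads (left) and clonotypes (right) of each mouse held by the 3 TRBV13 segments, with 1 point per mouse and black bars for the mean ± SD of each group (3 CTXpre and 5 CTXpre/CD4post mice). TRBV13-2 lies below the other members throughout, and for TRBV13-3 the 2 groups do not overlap in either panel.

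With each clonotype counted once, no member passed the threshold either. TRBV13-3 made up 11.5% ± 0.698 of the clonotypes in the CTXpre group (SD, n = 3) and 10.2% ± 0.595 in the CTXpre/CD4post group (SD, n = 5), a change of −0.18 with a standard error of 0.065 (edgeR, adjusted p = 0.28). TRBV13-2 made up 5.73% ± 0.215 and 6.19% ± 0.202, with a highest CTXpre mouse of 5.98% and a lowest CTXpre/CD4post mouse of 5.99%, a change of 0.09 with a standard error of 0.071 (edgeR, adjusted p = 0.43), which was 0.04 without CTXpre replicate 1, 0.05 without CTXpre/CD4post replicate 3 and 0.06 without the filter on low counts. TRBV13-1 made up 10.5% ± 0.639 and 9.88% ± 0.899, with overlapping groups. Of 22 segments tested by clonotypes, edgeR called 0 (0%) and DESeq2 0, with 3 at an unadjusted p under 0.05 in edgeR, TRBV13-3 among them. The groups did not overlap for TRBV13-3 (lower) and TRBV13-2 (higher), where 9.09% of all segments were lower throughout and 9.09% higher throughout.

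Within the family, the share of TRBV13-2 lay above that of every CTXpre mouse in every CTXpre/CD4post mouse, by a narrow margin. It made up 18.6% to 21.7% of TRBV13 reads in the CTXpre mice and 21.8% to 26.9% in the CTXpre/CD4post mice, and 20.1% to 21.4% against 21.9% to 24.9% of TRBV13 clonotypes. These 2 shares were chosen after their values were seen and were not tested. TRBV13-1 and TRBV13-3 shares of the family overlapped between the groups by both measures.

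The whole family held 29.3%, 27.3% and 29.97% of the reads in the CTXpre mice and 27.8%, 26.4%, 25.4%, 26.8% and 25.0% in the CTXpre/CD4post mice. With 10000 reads, the Wilson 95% confidence interval of the lowest CTXpre value was 26.4% to 28.2% and that of the highest CTXpre/CD4post value, 27.8%, was 27.0% to 28.7%, so these 2 mice could not be ordered. The means were 28.9% ± 1.39 and 26.3% ± 1.14, and the exact two-sided Mann–Whitney test gave p = 0.071 (adjusted p = 0.43 over 6 measures of the family), where 3 mice against 5 allow no p below 0.036. Without CTXpre/CD4post replicate 1 or 2 the difference was −2.98 or −2.62 percentage points. Of the clonotypes the family made up 27.7% ± 1.27 (n = 3) and 26.3% ± 0.635 (n = 5), with an exact p of 0.14, and the difference of −1.36 percentage points became −0.754 without CTXpre replicate 3.

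Among clonotypes of 2 or more reads the groups were further apart. The family then held 34.4%, 32.1% and 33.8% of the remaining reads in the CTXpre mice and 30.8%, 26.5%, 25.6%, 26.8% and 24.4% in the CTXpre/CD4post mice, without overlap and with an exact Mann–Whitney p of 0.036, the smallest possible, and an adjusted p of 0.11 over the 6 measures. TRBV13-3 held 13.8% to 14.5% of these reads against 8.47% to 12.1%, TRBV13-1 12.9% to 14.9% against 7.70% to 13.6%, and TRBV13-2 4.44% to 7.61% against 4.80% to 8.71%. This filter kept 2518 to 5610 reads of a library. Clonotypes of other TRBV segments with 10 or more reads held 2.00% ± 0.285 of the reads of those segments in the CTXpre group and 10.9% ± 8.07 in the CTXpre/CD4post group, and their part in the lower share of TRBV13 was not tested.

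The segments whose read shares followed those of the members most closely over the 8 mice were found from the mean absolute difference of log2 shares, each relative to the segment's own mean. TRBV13-3 was closest to TRBV17 (0.08), TRBV12-1 (0.12) and TRBV30 (0.12) of 22 other segments. TRBV13-1 was closest to TRBV15 (0.12) and TRBV17 (0.12) outside the family, then TRBV12-2 (0.17), with TRBV13-2 at 0.16. TRBV13-2 was closest to TRBV12-2 (0.14), TRBV14 (0.15) and TRBV17 (0.15). TRBV12-1 and TRBV12-2 lie between and beside the TRBV13 segments on the chromosome, in the order TRBV12-1, TRBV13-1, TRBV12-2, TRBV13-2 and TRBV13-3 among the segments named here.

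The members differed in their junctions. TRBV13-2 clonotypes kept the most V-encoded bases in the CDR3 and had the longest CDR3, TRBV13-1 clonotypes were intermediate, and TRBV13-3 clonotypes kept the fewest and were the shortest. This order held in 8 of 8 mice for both measures.

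The number of V-encoded bases, as aligned by the authors, was 14.8 ± 0.0916 for TRBV13-2, 14.4 ± 0.105 for TRBV13-1 and 13.6 ± 0.102 for TRBV13-3 (mean ± SD over 8 mice). TRBV13-3 lay at 13.50, 13.58 and 13.83 in the CTXpre mice and 13.73, 13.58, 13.62, 13.61 and 13.59 in the CTXpre/CD4post mice, all below the lowest TRBV13-1 mouse at 14.26. TRBV13-1 exceeded TRBV13-3 by 0.811 bases ± 0.162 (SD of the differences), although the 16 germline bases of the 2 segments are the same. TRBV13-2 exceeded TRBV13-3 by 1.17 ± 0.114, and TRBV13-1 minus TRBV13-2 was −0.357 ± 0.149. Each of these differences had p = 0.0078 in the exact sign-flip permutation test over 8 mice, the smallest that 8 mice allow, and an adjusted p of 0.021 over 21 tests (3 pairs of members and 7 measures). Each clonotype was counted once here. Weighted by reads, the differences were 0.769, 1.15 and −0.378 in the same directions, and none passed 0.05 (exact sign-flip, adjusted p = 0.055, 0.055 and 0.082).

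The alignment by the authors extended past the 16th base in 18.1% ± 1.89 of TRBV13-1, 22.9% ± 0.707 of TRBV13-2 and 9.94% ± 1.20 of TRBV13-3 clonotypes (mean ± SD, n = 8). In 94.5%, 95.4% and 92.4% of those, pooled over the mice, the base after the germline end was C, the complement of the last germline base. Matching each CDR3 base by base to its 16 germline bases, a count chosen after the data were seen, gave 14.1 ± 0.100 for TRBV13-2, 13.9 ± 0.0657 for TRBV13-1 and 13.2 ± 0.0768 for TRBV13-3, in the same order in 8 of 8 mice. All 16 bases were intact in 33.0% ± 2.51 of TRBV13-2, 29.0% ± 1.49 of TRBV13-1 and 16.1% ± 1.12 of TRBV13-3 clonotypes. The base that separates TRBV13-2, at position 10, was present as its own germline base in 98.9% of TRBV13-2, 96.8% of TRBV13-1 and 95.9% of TRBV13-3 clonotypes, pooled over the mice.

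CDR3 length was 41.7 nucleotides ± 0.184 for TRBV13-2, 41.3 ± 0.237 for TRBV13-1 and 40.8 ± 0.149 for TRBV13-3 (mean ± SD over 8 mice). The differences were −0.443 ± 0.259 for TRBV13-1 minus TRBV13-2, 0.450 ± 0.238 for TRBV13-1 minus TRBV13-3 and 0.893 ± 0.278 for TRBV13-2 minus TRBV13-3, each in the same direction in 8 of 8 mice with an exact sign-flip p of 0.0078 and an adjusted p of 0.021. The most common CDR3 had 14 residues for each member, at 27.3% ± 0.755 of TRBV13-1, 29.1% ± 2.87 of TRBV13-2 and 29.3% ± 1.30 of TRBV13-3 clonotypes. At 13 residues TRBV13-2 had 14.5% ± 1.36 of its clonotypes, against 19.8% ± 1.17 for TRBV13-1 and 20.4% ± 1.20 for TRBV13-3, and at 15 residues it had 23.8% ± 2.05 against 20.7% ± 1.44 and 17.6% ± 0.959. With TRBJ segments weighted equally, which was added after the data were seen, the same order remained, at 42.3, 41.9 and 41.4 nucleotides. Weighted by reads, the differences were −0.418, 0.164 and 0.582 nucleotides in the order given above, and none passed 0.05 (exact sign-flip, adjusted p = 0.10, 0.87 and 0.066).

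Bases assigned to none of the segments numbered 2.86 ± 0.105 for TRBV13-2, 2.91 ± 0.0813 for TRBV13-1 and 2.90 ± 0.0891 for TRBV13-3 (mean ± SD, n = 8). No pair of members differed by more than the spread between mice, with adjusted p-values of 0.61 to 0.77 in the exact sign-flip test. The order of the members in length was that of their V-encoded bases.

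**Figure D2:**
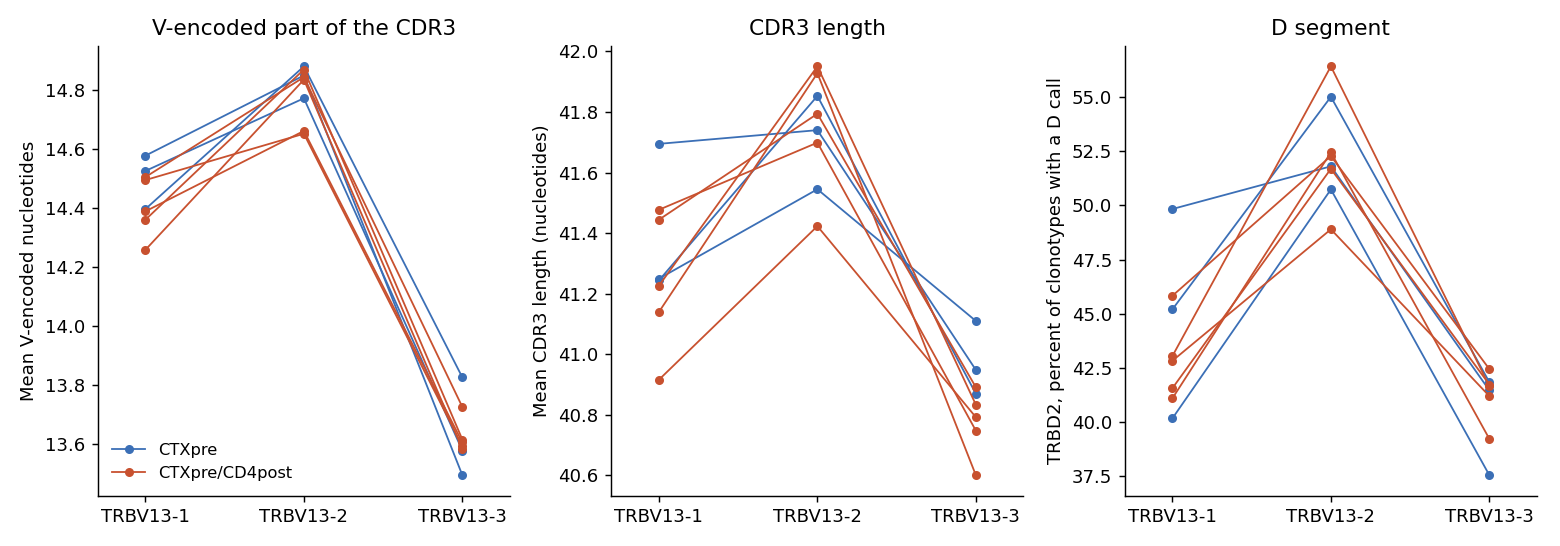
Mean number of V-encoded nucleotides in the CDR3 (left), mean CDR3 length in nucleotides (middle) and percent of clonotypes with a D call that were called TRBD2 (right) for the 3 TRBV13 segments, with 1 line per mouse. The axes do not start at 0. Every line in the left and middle panels rises from TRBV13-1 to TRBV13-2 and then falls to its lowest point at TRBV13-3.

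The D segment also differed between the members. TRBD2 was called in 52.4% ± 2.36 of the TRBV13-2 clonotypes with a D call, 43.7% ± 3.15 of TRBV13-1 and 40.9% ± 1.65 of TRBV13-3 (mean ± SD, n = 8). TRBV13-1 minus TRBV13-2 was −8.71 percentage points ± 3.64 and TRBV13-2 minus TRBV13-3 was 11.5 ± 2.40, each in the same direction in 8 of 8 mice (exact sign-flip p = 0.0078, adjusted p = 0.021). TRBV13-1 exceeded TRBV13-3 by 2.81 ± 2.53 in 7 of 8 mice (exact sign-flip p = 0.016, adjusted p = 0.033), and this last call was lost when any mouse but CTXpre/CD4post replicate 1 was left out (exact sign-flip, adjusted p = 0.066). The difference was 2.01 to 3.01 percentage points in the fits that lost it. Weighted by reads, the differences were −8.82, 13.8 and 5.00 in the order given above, and none passed 0.05 (exact sign-flip, adjusted p = 0.066, 0.055 and 0.20).

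D calls rest on few bases, 8.03 to 8.06 on average for each of TRBV13-1, TRBV13-2 and, at 8.01, TRBV13-3. No D segment was called in 30.4% ± 2.04 of TRBV13-1, 28.8% ± 1.09 of TRBV13-2 and 27.9% ± 1.29 of TRBV13-3 clonotypes. TRBD2 lies beyond the TRBJ1 cluster, so a join of TRBD2 to a TRBJ1 segment does not arise from ordinary deletional joining. Such calls made up 10.5% ± 3.36 of the TRBJ1 clonotypes with a D call for TRBV13-1, 11.5% ± 3.72 for TRBV13-2 and 6.71% ± 1.42 for TRBV13-3. Among TRBJ2 clonotypes, where both D segments can join, TRBD2 made up 66.7% ± 1.92 for TRBV13-2, 57.7% ± 3.09 for TRBV13-1 and 54.4% ± 1.83 for TRBV13-3, and the lowest TRBV13-2 mouse, at 64.0%, was above the highest mouse of either other member, at 63.7%.

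TRBJ partners were much alike. Each member was joined most often to TRBJ2-7, in 21.6% ± 2.12 of TRBV13-1, 21.5% ± 1.70 of TRBV13-2 and 22.2% ± 1.42 of TRBV13-3 clonotypes (mean ± SD, n = 8). Each was joined least often to TRBJ1-5, in 2.56% ± 0.681, 2.61% ± 1.14 and 2.19% ± 0.802. The TRBJ2 cluster as a whole made up 67.1% ± 2.34 of TRBV13-1, 69.6% ± 2.27 of TRBV13-2 and 68.8% ± 1.95 of TRBV13-3 clonotypes. TRBV13-1 minus TRBV13-3 was −1.69 percentage points ± 1.88, lower in 7 of 8 mice (exact sign-flip p = 0.016, adjusted p = 0.033), and the other 2 pairs of members did not pass 0.05. This call was also lost when any mouse but CTXpre replicate 1 was left out, and when clonotypes were weighted by reads (exact sign-flip, adjusted p = 0.066 and 0.10). In the fits that lost the call the difference was −1.85 to −1.12 with 1 mouse left out and −2.42 weighted by reads.

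2 partners stood out when all were looked at, and they were not tested. TRBJ1-1 was joined to 12.5% ± 1.01 of TRBV13-1 clonotypes against 9.37% ± 1.29 for TRBV13-2 and 9.60% ± 0.884 for TRBV13-3, higher in 8 of 8 mice in both cases. TRBJ2-5 was joined to 13.1% ± 0.95 of TRBV13-2 clonotypes against 10.0% ± 0.719 for TRBV13-1, again in 8 of 8 mice, and to 11.5% ± 1.26 of TRBV13-3 clonotypes.

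**Figure D3:**
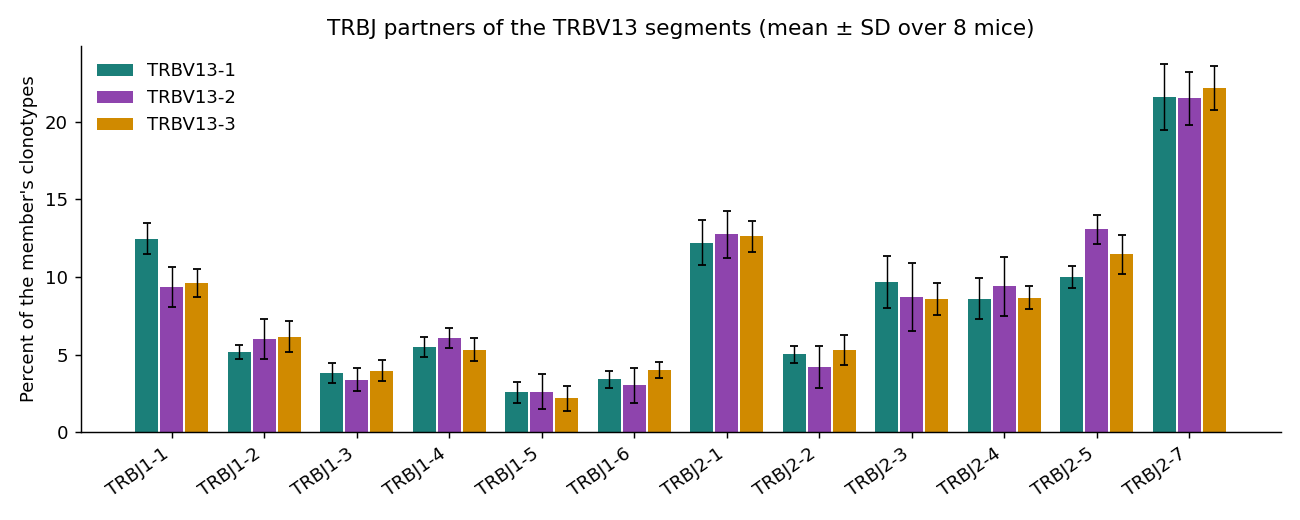
Percent of the clonotypes of each TRBV13 segment joined to each TRBJ segment, as the mean over 8 mice with SD bars. TRBJ2-7 is the tallest group for all 3 members and TRBJ1-5 the lowest, and TRBV13-1 stands above the others at TRBJ1-1.

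Between the groups, 36 TRBV13–TRBJ pairs had enough reads to be tested, 12 for each member. Over all 208 TRBV–TRBJ pairs edgeR called 0 (0%) at an adjusted p under 0.05, as did DESeq2, with 15 pairs at an unadjusted p under 0.05 in edgeR, 5 of them in the family. The median change was −0.15 over the pairs of TRBV13-1, 0.17 over those of TRBV13-2 and −0.27 over those of TRBV13-3, against 0.05 over all pairs. On the lower side in the CTXpre/CD4post group were 10 of 12 pairs of TRBV13-1, 5 of 12 of TRBV13-2 and 10 of 12 of TRBV13-3, against 95 of all 208.

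Every CTXpre/CD4post mouse was below every CTXpre mouse in 2.88% of all pairs and above in 2.4%. In the family this was so for 3 pairs and 1 pair of 36. TRBV13-3 with TRBJ1-2 had 76, 86 and 74 reads in the CTXpre mice and 47, 59, 63, 43 and 48 in the CTXpre/CD4post mice. Its change was −0.58 with a standard error of 0.22 (edgeR, adjusted p = 0.62). TRBV13-3 with TRBJ2-5 had 125, 129 and 153 reads against 110, 112, 104, 110 and 88, and TRBV13-1 with TRBJ2-2 had 65, 64 and 50 against 49, 42, 41, 45 and 36. In the other direction, TRBV13-2 with TRBJ1-4 had 35, 30 and 30 reads against 109, 43, 38, 41 and 62, with a change of 0.90 and a standard error of 0.35 (edgeR, adjusted p = 0.62). Of the 109 reads in CTXpre/CD4post replicate 1, 63 came from 1 clonotype, which was also in replicate 2 with 7 reads, and the change was 0.59 without replicate 1 and 1.00 without replicate 2.

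CDR3 length and the use of TRBJ2 over the whole family did not differ between the groups by more than the spread between mice. Length was 41.3 nucleotides ± 0.0903 (n = 3) against 41.2 ± 0.140 (n = 5), with an exact Mann–Whitney p of 0.57, and TRBJ2 was used in 68.7% ± 2.51 (n = 3) against 68.0% ± 0.913 of clonotypes (n = 5), with an exact p of 0.79. For single members the values by group were not tested. CDR3 length was 41.4 ± 0.259 and 41.2 ± 0.231 for TRBV13-1, 41.7 ± 0.156 and 41.8 ± 0.214 for TRBV13-2 and 41.0 ± 0.123 and 40.8 ± 0.110 for TRBV13-3, in the order CTXpre and CTXpre/CD4post. The TRBV13-3 means lay further apart than either SD, and the groups overlapped, with a lowest CTXpre mouse of 40.87 and a highest CTXpre/CD4post mouse of 40.89. TRBJ2 was used in 67.9% ± 3.21 and 66.6% ± 1.91 of TRBV13-1, 71.1% ± 2.70 and 68.6% ± 1.59 of TRBV13-2 and 68.3% ± 3.20 and 69.0% ± 1.13 of TRBV13-3 clonotypes. V-encoded bases were 14.5 ± 0.0933 and 14.4 ± 0.102 for TRBV13-1, 14.8 ± 0.0558 and 14.8 ± 0.107 for TRBV13-2 and 13.6 ± 0.172 and 13.6 ± 0.0579 for TRBV13-3, in the same order.

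Against all other TRBV segments, TRBV13-1 and TRBV13-3 clonotypes had shorter CDR3s in 8 of 8 mice, and TRBV13-2 clonotypes in 4 of 8, with means of 41.3, 40.8 and 41.7 nucleotides. The mean was 41.2 nucleotides ± 0.128 for the family and 41.8 ± 0.0978 for the others, a difference of −0.562 ± 0.156 in 8 of 8 mice (exact sign-flip p = 0.0078, adjusted p = 0.018 over 7 measures). The family had fewer unassigned bases, 2.89 ± 0.0594 against 3.03 ± 0.0527, and was joined to TRBJ2 less often, in 68.3% ± 1.55 against 70.8% ± 1.17 of clonotypes, each in 8 of 8 mice with the same adjusted p of 0.018 (exact sign-flip). V-encoded bases were 14.2 ± 0.0581 against 14.1 ± 0.0335, a difference of 0.0748 ± 0.0546 that was positive in 7 of 8 mice (exact sign-flip, adjusted p = 0.027) and no longer passed when any mouse but CTXpre/CD4post replicate 5 was left out (adjusted p = 0.055, exact sign-flip). It was 0.0641 to 0.0793 in the fits that did not pass. The differences in unassigned and in V-encoded bases did not pass when clonotypes were weighted by reads (exact sign-flip, adjusted p = 0.47 and 0.87) or when those of 1 read were left out (0.36 and 0.80). Under these 2 alternatives the difference in unassigned bases went from −0.137 to −0.0802 and −0.119. That in V-encoded bases went from 0.0748 to 0.0020 and 0.0127. The use of TRBD2 and the share of reads in abundant clonotypes did not differ past the threshold.

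Expanded TRBV13 clonotypes, here those of 10 or more reads, were present in every mouse, in numbers that varied between mice. There were 63 in all, 23 of TRBV13-1, 20 of TRBV13-2 and 20 of TRBV13-3. The CTXpre mice had 6, 2 and 3 of them, and the CTXpre/CD4post mice had 18, 3, 3, 10 and 18. Replicates 1, 4 and 5 of the CTXpre/CD4post group had the most, and replicates 2 and 3 lay within the range of the CTXpre mice.

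Expanded clonotypes held 6.24%, 1.61% and 2.94% of TRBV13 reads in the CTXpre mice and 11.6%, 1.33%, 3.70%, 5.38% and 19.9% in the CTXpre/CD4post mice. The means were 3.60% ± 2.38 (n = 3) and 8.37% ± 7.47 (n = 5), and the exact two-sided Mann–Whitney test gave p = 0.57 (adjusted p = 0.69). The difference of 4.77 percentage points was 1.90 without CTXpre/CD4post replicate 5, 3.97 without replicate 1 and 6.53 without replicate 2. With clonotypes of 5 or more reads it was 8.72 (exact p = 0.071) and with those of 20 or more 1.5 (exact p = 1). Shannon evenness within the family, which is 1 when all clonotypes have equal reads, was 0.969, 0.985 and 0.979 against 0.957, 0.986, 0.974, 0.972 and 0.918, with the same exact p of 0.57. The difference in evenness went from −0.0165 to −0.00577 without CTXpre/CD4post replicate 5. In other TRBV segments the same share of reads was 2.25%, 1.69% and 2.07% in the CTXpre mice and 6.58%, 4.12%, 8.69%, 10.5% and 24.7% in the CTXpre/CD4post mice, without overlap. Whether TRBV13 and the other segments differed in this change was not tested. Of all expanded β-chain clonotypes, 11 of 30 were TRBV13 in the CTXpre group (36.7%) and 52 of 232 in the CTXpre/CD4post group (22.4%, or 17.9% without replicate 1). By mouse the shares were 42.9%, 25.0% and 37.5% against 42.9%, 17.6%, 11.5%, 19.2% and 18.9%, so CTXpre/CD4post replicate 1 equalled the highest CTXpre mouse.

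The member with the largest expanded share of its own reads varied from mouse to mouse. In CTXpre replicate 1 and CTXpre/CD4post replicate 1, it was TRBV13-2, at 18.3% and 22.8%, against 2.91% and 9.65% for TRBV13-1 and 2.92% and 4.64% for TRBV13-3. TRBV13-2 was also the highest in CTXpre/CD4post replicate 4, at 9.25%. In CTXpre/CD4post replicate 5 the share was 24.5% for TRBV13-3, 16.5% for TRBV13-2 and 15.9% for TRBV13-1. TRBV13-2 had no expanded clonotype in CTXpre replicates 2 and 3 and CTXpre/CD4post replicate 2. Over the 8 mice the expanded shares of no pair of members differed past the threshold, with adjusted p-values of 0.53 to 0.77 in the exact sign-flip test.

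**Figure D4:**
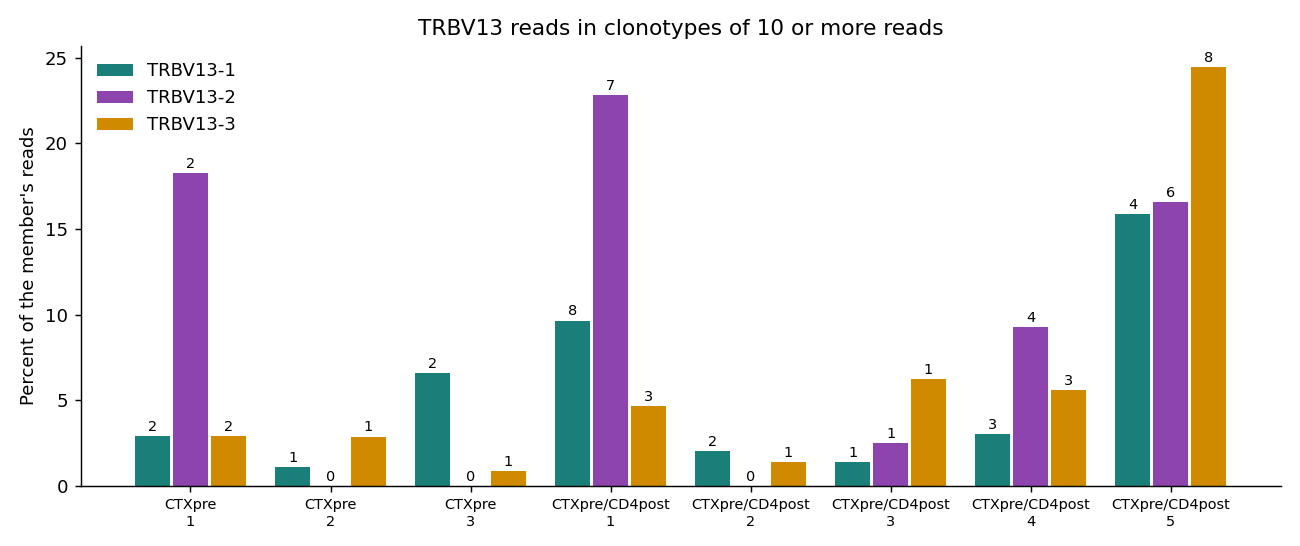
Percent of the reads of each TRBV13 segment in clonotypes of 10 or more reads, by mouse, with the number of such clonotypes above each bar. TRBV13-2 has the tallest bar in CTXpre replicate 1 and CTXpre/CD4post replicates 1 and 4, and TRBV13-3 in CTXpre/CD4post replicate 5, where the lowest member is at 15.9%.

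The most abundant TRBV13 clonotype of each mouse is shown as its CDR3 nucleotide sequence, to show how the expanded receptors were built. Capitals mark the bases that the alignment by the authors placed between the V-encoded and the J-encoded part, D bases included:
CTXpre replicate 1, TRBV13-2 with TRBJ2-1: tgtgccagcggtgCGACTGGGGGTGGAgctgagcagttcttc
CTXpre replicate 2, TRBV13-3 with TRBJ2-4: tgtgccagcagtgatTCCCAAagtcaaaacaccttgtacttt
CTXpre replicate 3, TRBV13-1 with TRBJ1-1: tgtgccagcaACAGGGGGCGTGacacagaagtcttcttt
CTXpre/CD4post replicate 1, TRBV13-2 with TRBJ1-4: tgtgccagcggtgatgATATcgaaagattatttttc
CTXpre/CD4post replicate 2, TRBV13-3 with TRBJ2-4: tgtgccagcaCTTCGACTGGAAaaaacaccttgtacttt
CTXpre/CD4post replicate 3, TRBV13-3 with TRBJ1-6: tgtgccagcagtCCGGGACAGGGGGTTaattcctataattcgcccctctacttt
CTXpre/CD4post replicate 4, TRBV13-3 with TRBJ1-1: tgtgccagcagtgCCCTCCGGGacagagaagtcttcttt
CTXpre/CD4post replicate 5, TRBV13-3 with TRBJ2-4: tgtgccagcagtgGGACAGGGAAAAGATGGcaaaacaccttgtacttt
They held 94, 33 and 64 of 10000 reads in the CTXpre mice and 63, 13, 67, 29 and 162 in the CTXpre/CD4post mice. The highest, in CTXpre/CD4post replicate 5, was 1.62% of its library (Wilson 95% confidence interval 1.39% to 1.89%) and 14.5% of the TRBV13-3 reads of that mouse. The highest in the CTXpre group, in replicate 1, was 0.94% (0.769% to 1.15%) and 14.8% of the TRBV13-2 reads. They were the most abundant of all β-chain clonotypes in 3 mice, CTXpre replicates 1 and 3 and CTXpre/CD4post replicate 5. Of these 8, TRBV13-3 supplied 5, TRBV13-2 2 and TRBV13-1 1, and 7 were found in no other mouse. The 8th, of CTXpre/CD4post replicate 1, was also in replicate 2. Only that one kept all 16 germline V bases, and the bases between V and J numbered 4 to 17 in that alignment. The lower-case ends of the 2 sequences with TRBJ1-1 are not identical, so the start of J in CTXpre/CD4post replicate 4 is uncertain.

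Of 15770 distinct TRBV13 sequences with their V and J segments, 15444 were found in 1 mouse, 275 in 2, 42 in 3, 8 in 4 and 1 in 5. The same CDR3 under another V name counted as another sequence here. Sequences in 2 or more mice numbered 126 of 5953 for TRBV13-1 (2.12%), 60 of 3542 for TRBV13-2 (1.69%) and 140 of 6275 for TRBV13-3 (2.23%). Without CTXpre/CD4post replicate 1 these counts were 89, 38 and 109, and without replicate 2 they were 86, 39 and 112. The family then had 236 or 237 such sequences in place of 326. Only sequences seen at this depth count, so a sequence found in 1 mouse may be present in others below the limit of detection.

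Shared sequences were shorter and had fewer added bases than unshared ones. Those found in 1 mouse averaged 41.4 nucleotides with 2.96 unassigned bases, those in 2 mice 38.7 with 1.62, and those in 3 or more 37.3 with 1.18. No unassigned base was needed in 15.1%, 41.8% and 47.1% of them, and TRBJ2-7 was used in 21.1%, 31.3% and 45.1%. By member the use of TRBJ2-7 was 21%, 21.9% and 52.4% for TRBV13-1, 21%, 30.8% and 50% for TRBV13-2 and 21.2%, 39.8% and 36.4% for TRBV13-3, so not every step was upward, and those in 3 or more mice numbered 21, 8 and 22 sequences. For the family without CTXpre/CD4post replicate 1, a check added after the data were seen, the lengths were 41.3, 38.1 and 37.1 nucleotides, the unassigned bases 2.96, 1.23 and 1.27, and the shares with TRBJ2-7 21%, 33.7% and 51.4%. Without replicate 2 they were 41.4, 38.3 and 36.9 nucleotides, 2.94, 1.38 and 1.00 bases, and 21%, 33.8% and 48.7%. Sequences in 1 mouse and in 2 averaged 41.5 and 39.3 nucleotides for TRBV13-1, 41.9 and 39.1 for TRBV13-2, and 41.0 and 38.0 for TRBV13-3. These are means over sequences, which are not replicates, and carry no test.

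9 sequences were found in 4 or more mice, 6 without CTXpre/CD4post replicate 1 and 5 without replicate 2. The 8 of them with the most mice, then the most reads, are shown because most had few or no bases between V and J, which capitals mark again:
TRBV13-1 with TRBJ2-7, 5 mice: tgtgccagcagtgatgTtgaacagtacttc
TRBV13-1 with TRBJ2-7, 4 mice: tgtgccagcagtgatgGtgaacagtacttc
TRBV13-2 with TRBJ2-7, 4 mice: tgtgccagcggtgaacagtacttc
TRBV13-1 with TRBJ2-7, 4 mice: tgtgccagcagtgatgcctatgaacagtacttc
TRBV13-1 with TRBJ2-7, 4 mice: tgtgccagcagtgatgctgaacagtacttc
TRBV13-1 with TRBJ2-7, 4 mice: tgtgccagcagtgactatgaacagtacttc
TRBV13-3 with TRBJ2-5, 4 mice: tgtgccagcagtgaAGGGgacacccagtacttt
TRBV13-1 with TRBJ2-1, 4 mice: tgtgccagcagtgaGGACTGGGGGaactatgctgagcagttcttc
The first had 2, 0 and 1 reads in the CTXpre mice and 2, 1, 0, 1 and 0 in the CTXpre/CD4post mice, so it was present in both groups and abundant in none. The next one reached 6 reads in CTXpre replicate 3, the highest of any of these 8 in a mouse. The sequence that is 24 nucleotides long, with no base between V and J, was seen in 4 CTXpre/CD4post mice with 1, 2, 4 and 2 reads and in no CTXpre mouse. TRBV13-1 with TRBJ2-7 supplied 5 of the 8 and 7 of the 8 came without a D call. With any V name counted, the TRBV13-3 sequence was found in 5 mice, as was the TRBV13-1 sequence that reached 3 reads in 2 mice.

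Of the 63 expanded TRBV13 sequences, 13 were found in 2 or more mice (20.6%, against 2.07% of all TRBV13 sequences), and all 13 lay in CTXpre/CD4post replicates 1 and 2. In each the 10 or more reads were in replicate 1, and 1 of them was also in CTXpre replicate 2 with 1 read. Without replicate 1, 0 of 45 expanded sequences were found in another mouse, and without replicate 2, 1 of 60.

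Overlap between mice was compared within and across the groups and did not pass the threshold. Pairs of CTXpre mice had 3.73 TRBV13 sequences in common per 1000000 possible pairs of clonotypes ± 0.561 (SD over 3 pairs), pairs of CTXpre/CD4post mice 4.74 ± 2.78 (10 pairs), and pairs across the groups 3.65 ± 1.05 (15 pairs). The exact permutation test over the mice gave p = 0.45 for the difference of 1.02. Without the pair of CTXpre/CD4post replicates 1 and 2 the mean of that group was 3.99 ± 1.51, the difference 0.26 and the exact permutation p 0.88. With 1 mouse left out the difference ran from 0.211 without CTXpre/CD4post replicate 1 to 1.69 without replicate 5 (exact permutation p = 0.94 and 0.23). It was 0.44 without CTXpre replicate 2, 1.56 without CTXpre replicate 3 and 1.58 without CTXpre/CD4post replicate 4 (exact permutation p = 0.81, 0.57 and 0.14). Of the 47 sequences that this pair had in common, 22 were TRBV13-1, 12 TRBV13-2 and 13 TRBV13-3.

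**Figure D5:**
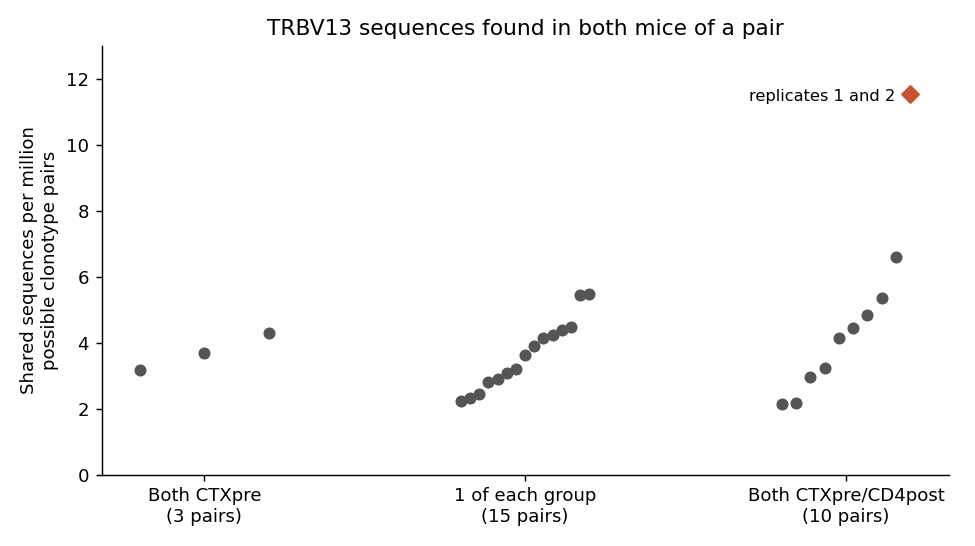
TRBV13 sequences found in both mice of a pair, per 1000000 possible pairs of clonotypes, with 1 point for each of the 28 pairs of mice. The pair of CTXpre/CD4post replicates 1 and 2 (diamond) lies at 11.5, and the other 27 lie between 2.13 and 6.61 in all 3 columns.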

How the data were processed

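The deposited counts are reads per β-chain clonotype in 8 libraries, 1 per mouse. The authors used nested PCR of TCR transcripts and MiSeq paired-end sequencing, trimmed with Scythe 0.994 and Sickle, aligned in MiXCR (version not given in the sources used here), extracted the chains with VDJtools and down-sampled to 10000 reads. The deposited fraction is the count over 10000 and was not used further, and the α-chain files were not used here. The deposited alignment gives the last V, the D and the first J base within the CDR3. Groups and replicate numbers come from the sample labels.

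The members and lists were chosen with earlier results of these data known. Reads and clonotypes per TRBV segment, and reads per TRBV–TRBJ pair, were kept where 3 or more mice had 10 or more. The quasi-likelihood test of edgeR 4.0.16 with TMM scaling was run in R 4.3.3, and p-values were adjusted by Benjamini-Hochberg with a threshold of 0.05. DESeq2 1.42.0 was the other tool tried. Standard errors were taken from the log2 change and its F statistic in this fit. For values per mouse, a two-sided exact Mann–Whitney test was taken over all 56 ways to assign 8 mice to 3 and 5. Members within mice were compared by the exact sign-flip permutation test over 256 sign sets. Both were enumerated in Python 3.11.15 with numpy 2.4.6 and pandas 2.3.3, which also read the tables. Wilson intervals came from scipy 1.17.1. The statistics were tested on simulated data. Named were the 3 segments, up to 3 other segments most like each, TRBV13–TRBJ pairs that passed the threshold, the most and least used TRBJ of each member, the top clonotype of every mouse by reads and the 8 sequences in the most mice. TRBJ1-1, TRBJ2-5 and the pairs whose groups did not overlap were named after their values were seen. Sequences of the germline segments and their coordinates come from RefSeq on GRCm38 (the processing notes name mm10, the same assembly). No protein sequence is shown. The alternatives were DESeq2, other filters and scaling, 5 or 20 reads for an expanded clonotype, weighting by reads, leaving out clonotypes of 1 read, a replicate block and leaving out each mouse. Which of these mice shared a cage or a sorting day is not given in the sources used here, so p-values measure the spread between these mice.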

Additional observations from a re-analysis of the deposited data

Results flagged for a closer look

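3 of 33 TRBV13 values examined in the 5 CTXpre/CD4post mice had 1 mouse far from the other 4 by Dixon's criterion, which flags about 1 group in 20 by chance. TRBV13-2 held 7.49% of the reads in CTXpre/CD4post replicate 1, with the next mouse at 6.10%. This is the library with 47 TRBV13 sequences in common with replicate 2. The mean number of V-encoded bases of TRBV13-3 was 13.7 in the same mouse, with the next at 13.6. The share of TRBV13-3 reads in clonotypes of 10 or more reads was 24.5% in CTXpre/CD4post replicate 5, with the next mouse at 6.22%, and a single clonotype held 14.5% of the TRBV13-3 reads there.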

How the results depend on the processing

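Of 145 alternative values of the main results, 133 kept their direction and, for a test, their side of the threshold or, for a count of calls, stayed within 1.5 times of it, which leaves room for single calls lost. Without clonotypes of 1 read, the difference between groups (CTXpre/CD4post minus CTXpre) became −6.62 percentage points of reads and −4.15 of clonotypes for the family, each with an unadjusted exact p of 0.036 (adjusted p = 0.11 over 6 measures), and the difference in CDR3 length turned to 0.0743 nucleotides. Weighted by reads it was 0.0343. The cause was not tested. With 1 mouse left out in turn, the difference in TRBJ2 use ran from −1.89 to 0.60 percentage points and turned sign without CTXpre replicate 3. 3 mice against 4 allow no p below 0.057. Replicate numbers pair different animals, and the deviations of same-numbered mice over TRBV segments correlated at −0.68, −0.27 and 0.29. These 3 values cannot show whether same-numbered mice shared a cage or a sorting day, which is not given. With replicate numbers as a block, over the 6 mice of replicates 1 to 3, edgeR called 1 segment by reads (TRBV13-3, adjusted p = 0.030) and 2 by clonotypes (TRBV13-3 at 0.012 and TRBV16), and 0 TRBV–TRBJ pairs. For values per mouse the block leaves 3 pairs, which allow no p below 0.25, so it could add no call there, and it was not run for the overlap or for contrasts within mice. With each mouse left out, edgeR called 0 to 3 segments by reads and 0 to 1 by clonotypes, and the calls came without CTXpre/CD4post replicate 3 (TRBV13-3, TRBV16 and TRBV17 by reads, TRBV16 by clonotypes). The change of TRBV13-2 reads ran from −0.082 to 0.075 on the log2 scale.

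Of the 10 differences between members past the threshold, 8 to 9 were past it with 1 mouse left out and 0 when clonotypes were weighted by reads. Then 3 of them still had the smallest possible p, which adjustment over 21 tests takes to 0.055. Without clonotypes of 1 read, 10 were past the threshold. For TRBV13-1 minus TRBV13-2, V-encoded bases then went to −0.572 and CDR3 length to −0.669 nucleotides. For TRBV13-1 minus TRBV13-3, TRBD2 use went to 4.66 percentage points, while CDR3 length fell to 0.350 nucleotides. The 4 differences between the family and other segments became 2 when weighted by reads and 2 without clonotypes of 1 read, and 3 to 4 with 1 mouse left out. Values not past the threshold crossed 0. Unassigned bases of TRBV13-1 minus TRBV13-2 went to −0.0174 (weighted by reads) and −0.0254 (clonotypes of 1 read left out), of TRBV13-1 minus TRBV13-3 to −0.110 (weighted) and −0.00614 to 0.0214 (mice left out), and of TRBV13-2 minus TRBV13-3 to 0.108 (clonotypes of 1 read left out) and −0.0593 to 0.000529 (mice left out). TRBD2 use of the family minus other segments went to 0.860 percentage points (clonotypes of 1 read left out) and −0.555 to 0.0186 (mice left out), TRBJ2 use of TRBV13-2 minus TRBV13-3 to −0.150 to 1.26, and expanded reads of TRBV13-1 minus TRBV13-3 to −1.74 to 0.309.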
